A study of Homo sapiens with 12 samples.

Results

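CDK19 and CDK8 are closely related kinases, and their knockdowns were compared here directly, locus by locus, through the breadth of histone H3 lysine 27 acetylation (H3K27ac). The comparison uses 6 of the 12 samples of the series, selected by their titles: 3 libraries of cells with CDK19 knocked down (CDK19KD) and 3 of cells with CDK8 knocked down (CDK8KD), matched by replicate number. All groups are MDA-MB231, a breast cancer cell line. CDK19KD cells were infected with lentivirus bearing a CDK19 shRNA and CDK8KD cells with one bearing a CDK8 shRNA, and both were grown for 96 h after infection. The 3 Control libraries, from cells given the empty vector control (EV-control), entered no choice of loci and no test. Their values are given as a level beside library totals, named loci and called regions. They also serve to order regions and bins by a measure that the tests did not use. H3K27ac was mapped by sequencing DNA pulled down from native, unfixed chromatin, and 9 of the 12 samples have a peak list. The labels name the target of each shRNA but no hairpin and no clone. Nothing states that replicates came from separate cultures, so p-values measure only the spread between these libraries. In such bulk material, acetylation of a longer stretch in each cell and acetylation in more of the cells cannot be told apart.

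As background, CDK8 and CDK19 are alternative catalytic subunits of the Mediator kinase module, which also holds cyclin C, MED12 and MED13. The module binds Mediator reversibly and acts on transcription from enhancers and promoters, with positive and negative effects known. H3K27ac marks active enhancers and promoters, and wide stretches of it are typical of strongly active genes and clustered enhancers. Gene positions in the build of the peak lists, hg19, were not used here, so loci are given by coordinate (counted from 1), the genes at them are not named, and neither the knockdowns nor the cell line's markers were checked.

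The 6 lists held between 62669 and 74761 broad peaks on chromosomes 1 to 22 and X, and read depth is unknown. Libraries differed in how strong their peaks were. The share of peaks with a deposited −log10 q of at least 5 was 41.6%, 19.9% and 43.9% in CDK19KD replicates 1, 2 and 3, and 39.9%, 26.3% and 33.4% in CDK8KD. The median fold enrichment over background was 2.94, 2.86 and 2.97 in CDK19KD and 2.96, 2.67 and 2.66 in CDK8KD. The part of these differences in the results below was not tested.

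The CDK8KD lists covered more sequence, and the surplus lay in wide peaks. The lists covered 271, 262 and 269 Mb in CDK19KD replicates 1, 2 and 3 and 292, 296 and 318 Mb in CDK8KD, a log2 ratio of −0.18 ± 0.07 (CDK19KD over CDK8KD, SD over 3 pairs, exact two-sided sign-flip permutation p = 0.25, 0.375 adjusted over the 3 single values tested). Peaks of at least 10 kb summed to 81.8, 72.2 and 81.3 Mb in CDK19KD replicates 1, 2 and 3, and to 109, 103 and 132 Mb in CDK8KD. Every CDK8KD library lay above every CDK19KD library. The means were 78.4 ± 5.39 Mb (SD, n = 3) and 114 ± 15.2 Mb (SD, n = 3), a log2 ratio of −0.54 (CDK19KD over CDK8KD) with pair values of −0.41, −0.51 and −0.70. All 3 pairs had the same sign, which gives the smallest p this design allows (exact two-sided sign-flip permutation p = 0.25, adjusted 0.375). Peaks under 10 kb summed to 189, 189.5 and 187 Mb in CDK19KD and to 184, 193 and 187 Mb in CDK8KD, and these ranges overlap. The Control lists lay across the levels of both groups, with 263, 313 and 316 Mb covered in replicates 1, 2 and 3. Their peaks of at least 10 kb summed to 75.9, 97.9 and 118 Mb.

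The classes of width moved in opposite directions. Peaks of 20 kb or more numbered 939, 754 and 974 in CDK19KD and 1426, 1281 and 1853 in CDK8KD, and summed to 25.6 ± 3.98 Mb against 46.6 ± 11.5 Mb (SD, n = 3). Those of 10 to 20 kb summed to 52.8 ± 2.03 Mb against 67.9 ± 3.84 Mb, and those of 5 to 10 kb to 80.5 ± 3.44 Mb against 87.0 ± 2.80 Mb (SD, n = 3). In the class of 1 to 5 kb CDK19KD had more, 99.1 ± 1.73 Mb against 90.7 ± 2.64 Mb (SD, n = 3). Each of these 4 differences had one sign in all 3 pairs. Below 1 kb the pairs differed in sign, with means of 9.24 and 9.81 Mb. The median width of all peaks differed little, with a log2 ratio of −0.07 ± 0.09 (SD over 3 pairs, exact sign-flip permutation p = 0.5, adjusted 0.5) and the opposite sign in pair 3.

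**Figure D1:**
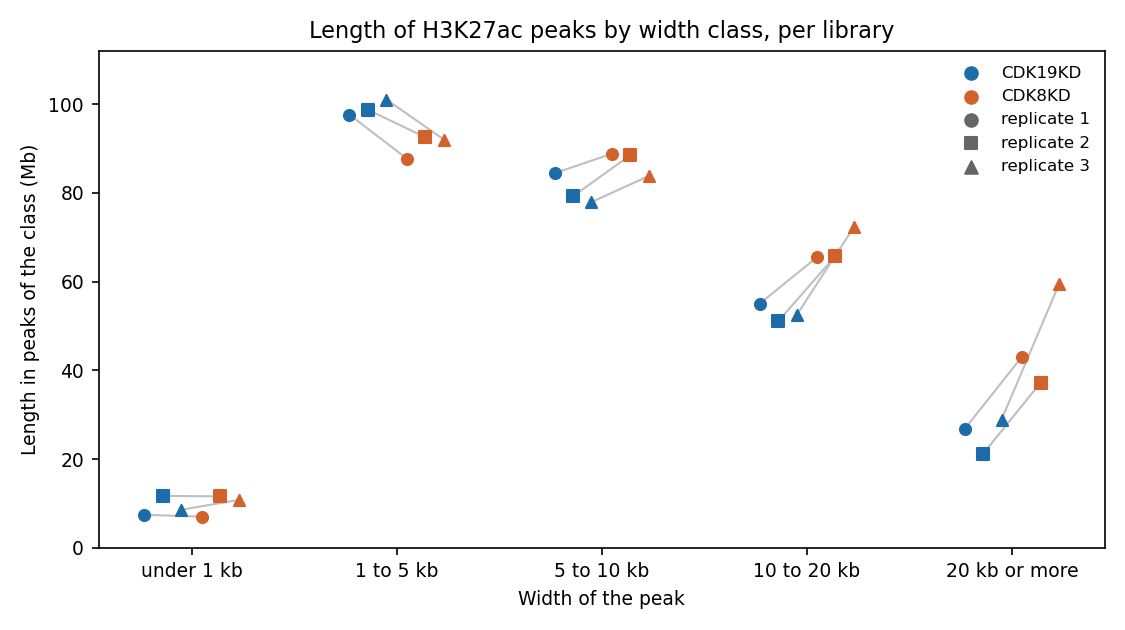
Length summed over the peaks of each width class (Mb, vertical axis) in each library, CDK19KD in blue and CDK8KD in orange, with lines joining libraries of the same replicate number. CDK8KD lies higher in all 3 pairs from 5 kb upward, and CDK19KD lies higher in all 3 pairs between 1 and 5 kb.

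Most of the difference in covered length, like most of the covered length itself, lay where both knockdowns had peaks. Joining every set of peaks that touch across the 6 lists gave 100739 regions. Of these, 37509 had a peak in each of the 6 libraries and are called shared regions. Shared regions had 247, 237 and 242 Mb covered in CDK19KD replicates 1, 2 and 3 and 268, 268 and 280.1 Mb in CDK8KD. That mean difference of −30.0 Mb was 86.1% of the difference over all regions. Shared regions also held a mean of 242 of 267 Mb covered in CDK19KD and 272 of 302 Mb in CDK8KD. The 86.1% is therefore close to their share of the covered length and shows no concentration in them. Regions with peaks in 1 group alone differed by fewer Mb, though by more in proportion to their length. There were 17785 seen in CDK19KD alone (mean 7.08 Mb) and 24993 in CDK8KD alone (mean 9.97 Mb), mostly in a part of the group's libraries. Only 1024 had a peak in each CDK19KD library and none in CDK8KD, 961 had the reverse, and either set covered a mean of 1.63 Mb.

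Shared regions were also less broken up in CDK8KD. CDK19KD replicates 1, 2 and 3 split them into 47887, 52815 and 49489 peaks, and CDK8KD into 45626, 50393 and 46065. In each pair CDK8KD had fewer peaks, although the ranges of both groups overlap. Gaps without a called peak, between the outermost peaks of a shared region, summed to 26.4, 32.9 and 27.3 Mb in CDK19KD. In CDK8KD they summed to 19.3, 24.2 and 15.6 Mb, without overlap. Over all shared regions, 69.5% of the difference in covered length lay at the outer edges and 30.5% in gaps.

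Breadth was then tested region by region, as the log2 of the length covered within each shared region, with limma and the replicate number as a block. Of the 37509 regions, 1559 (4.16%) were narrower in CDK19KD than in CDK8KD and 236 (0.629%) were broader, at an adjusted p under 0.05. The median over all shared regions was −0.15 on the log2 scale, so lengths were also divided by the total covered length of the library, which moved this median to 0.03. With that scaling 603 were narrower and 380 broader. All of the 603 and 236 of the 380 were also called without scaling. The calls depended on the pairing: without the replicate block 132 were narrower and 14 broader. The counts also changed when a pair was left out. Without replicate 1 or without replicate 2 none (0) passed, where 8246 and 7355 regions had an unadjusted p under 0.05. The smallest adjusted p-values of these limma fits were 0.0543 and 0.0805. Without replicate 3 the counts were 1065 narrower and 226 broader, and 852 and 127 of these were also called with all 3 pairs. There 7671 regions had an unadjusted p under 0.05, fewer than without replicate 1. The falls to 0 thus do not show which pairs carry the calls.

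The 1559 narrower regions had less covered and more separate peaks in CDK19KD. Their median covered length was 5386 bp in CDK19KD and 10696 bp in CDK8KD, with 2.08 and 1.68 peaks per region. In Control it was 6626 bp, and the Control mean was nearer to CDK19KD than to CDK8KD in 1208 of them (77.5%), against 56.5% of all shared regions. For the 236 broader regions the medians were 7030 bp in CDK19KD, 2823 bp in CDK8KD and 4912 bp in Control, and Control was nearer to CDK19KD in 110 of them (46.6%). These lengths belong to the measure that called the regions and are given as a description.

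Calls grew with the breadth of a region in Control, which had no part in the test. Narrower regions were 2.42% of the 6319 shared regions with up to 2 kb covered in Control and 9.44% of the 2628 with over 16 kb. Broader regions were between 0.491% and 0.790% in every class with any coverage in Control. The median log2 difference changed little, from −0.16 to −0.13, while its quartiles drew closer, from −0.63 and 0.29 to −0.27 and −0.03. In base pairs the median difference went from −200 bp to −2345 bp.

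**Figure D2:**
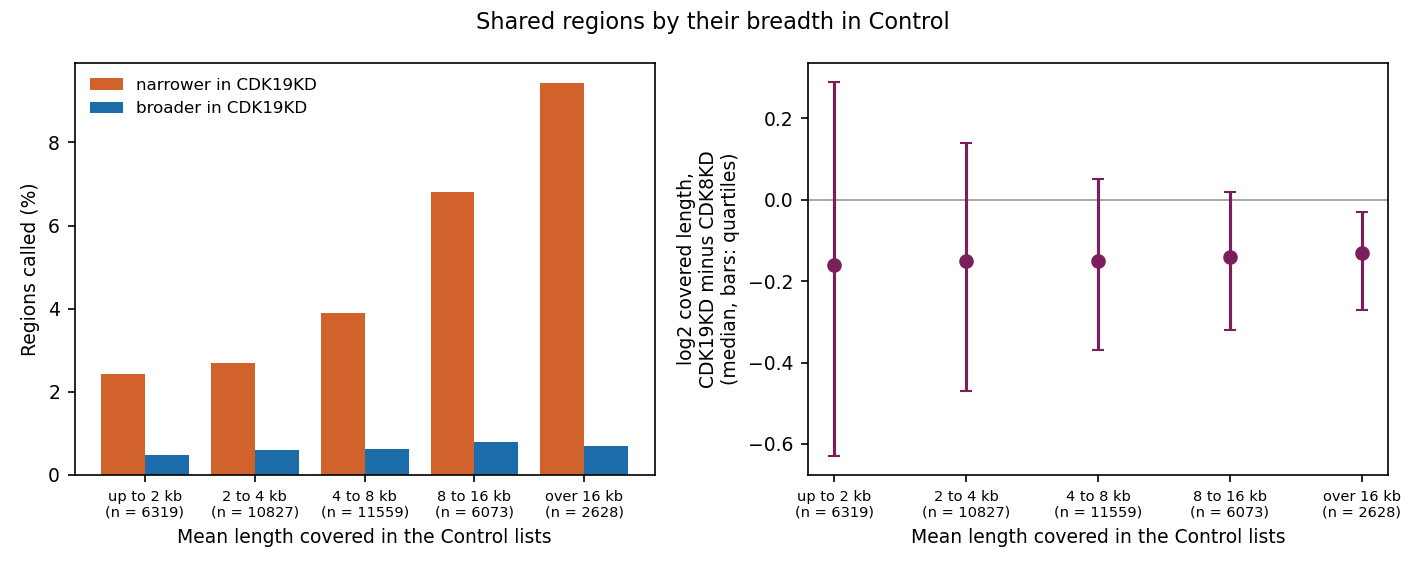
Shared regions grouped by the mean length covered in the 3 Control lists (horizontal axis). Left, percent called narrower (orange) or broader (blue) in CDK19KD. Right, log2 difference in covered length (CDK19KD minus CDK8KD), points for medians and bars for quartiles; the 103 regions with no Control coverage are not drawn. The share called narrower goes from 2.42% to 9.44% while the median stays between −0.16 and −0.13.

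The 5 regions with the largest difference in each direction, among those with a mean of at least 2 kb covered, are lettered A to E (broader in CDK19KD) and F to J (narrower). This minimum applied to the naming and not to the test. All but region D met it only through the group with more coverage, so the sizes of these differences describe chosen loci. Region A, chr2:32642118-32654499, had 11669, 7035 and 8924 bp covered in CDK19KD replicates 1, 2 and 3 and 1758, 472 and 341 bp in CDK8KD. Every CDK19KD library had at least 7035 bp there and no CDK8KD library over 1758 bp, a log2 difference of 3.78 (SE 0.40, adjusted p = 0.0237). The Control libraries, with 5125, 7877 and 8338 bp, lay near CDK19KD.

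Region B, chr1:72986372-72998122, had 11205, 7014 and 9383 bp in CDK19KD and 2867, 815 and 343 bp in CDK8KD (log2 difference 3.28, SE 0.50, adjusted p = 0.0313). Control lay between, at 4216, 5035 and 1532 bp. Region D, chr12:91513917-91528225, was nearly filled in CDK19KD replicate 1, with 13582 of its 14309 bp, and held 9158 and 12105 bp in replicates 2 and 3. In CDK8KD it held 4283, 1452 and 306 bp (log2 difference 3.21, SE 0.64, adjusted p = 0.0467). The Control libraries were spread over both levels there, with 7124, 8209 and 300 bp.

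Region C, chr2:165909072-165916281, and region E, chr13:49925273-49933194, had log2 differences of 3.21 (SE 0.40, adjusted p = 0.0250) and 2.78 (SE 0.39, adjusted p = 0.0285). In region C CDK19KD covered from 4171 to 7210 bp and CDK8KD from 279 to 1262 bp. Region E had from 5902 to 7852 bp in CDK19KD and from 393 to 1648 bp in CDK8KD. Neither region overlapped between the groups. Control had 1602, 4100 and 831 bp in region C and 4807, 3587 and 3498 bp in region E.

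Among the narrower regions, G, chr1:22570877-22580918, had the tightest values. CDK19KD replicates 1, 2 and 3 had 696, 668 and 639 bp covered and CDK8KD 6541, 6628 and 8726 bp (log2 difference −3.44, SE 0.27, adjusted p = 0.0181). Each CDK19KD library listed 1 short peak, while the longest peak there had 6541, 6025 and 8726 bp in the CDK8KD libraries. Control had 574, 561 and 2407 bp, closer to CDK19KD. Region I, chr11:10643950-10649423, had 290, 250 and 1136 bp in CDK19KD and 3912, 4424 and 4909 bp in CDK8KD (log2 difference −3.34, SE 0.50, adjusted p = 0.0300). Control had 1056, 726 and 3334 bp in region I.

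The other 3 narrower regions lay at the tips of chromosomes. Region J, chr7:58707-75812, began 48863 bp from the first base covered on its chromosome by any of the 6 lists. CDK19KD had 796, 1588 and 2092 bp covered there and CDK8KD 12934, 13540 and 15531 bp (log2 difference −3.34, SE 0.25, adjusted p = 0.0181). Region H, chr1:229552-251707, had 831, 1913 and 1901 bp in CDK19KD and 14405, 10721 and 21701 bp in CDK8KD (log2 difference −3.37, SE 0.31, adjusted p = 0.0221). Region F, chr14:107277293-107283447, ended 5651 bp before the last base covered on its chromosome, with 280, 250 and 957 bp in CDK19KD and 5997, 3390 and 5180 bp in CDK8KD (log2 difference −3.54, SE 0.48, adjusted p = 0.0271). Control libraries had between 462 and 5381 bp in these 3 regions, less than every CDK8KD library in each of them. Chromosome tips hold sequence repeated on several chromosomes, and how reads with several possible positions were treated is not given in the sources used here. Without the replicate block, regions G, H and J kept an adjusted p under 0.05 (0.0323, 0.0361 and 0.0356), and the other 7 had adjusted p-values from 0.0507 to 0.118.

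**Figure D3:**
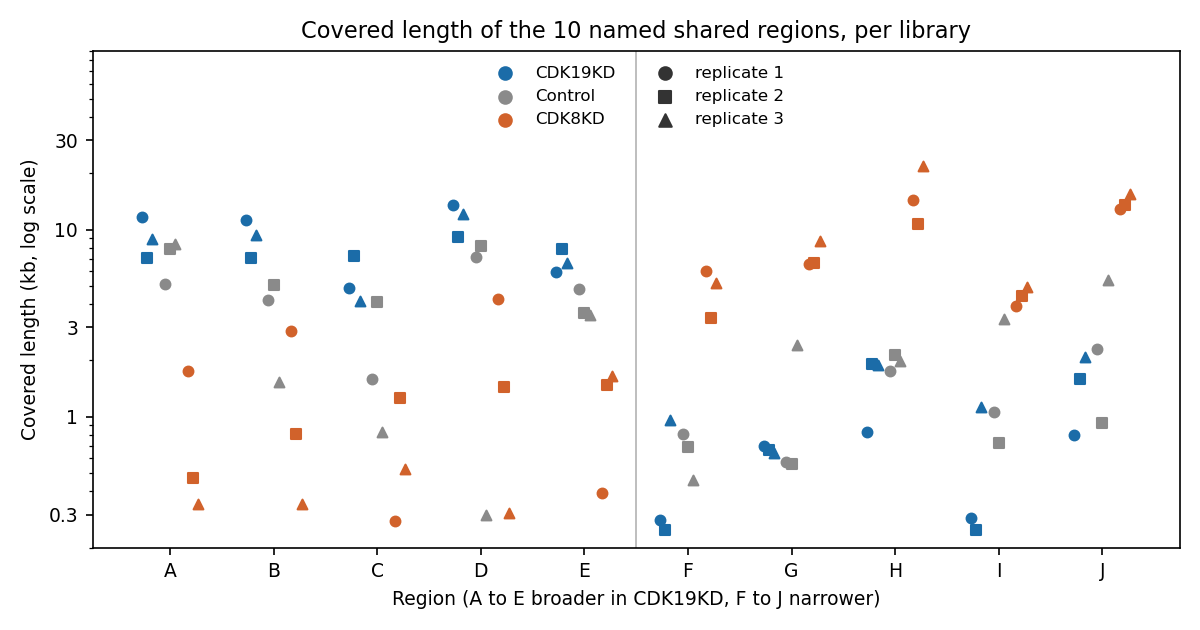
Covered length (kb, log scale) in each library of the 10 named shared regions, CDK19KD in blue, Control in grey and CDK8KD in orange, with a marker for each replicate number. In every region the 3 blue points and the 3 orange points do not overlap, and the regions were chosen for this difference.

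In bins of 1 Mb the pattern over chromosomes showed as a second, coarser scale. Of 2361 bins with a mean of at least 10 kb covered, 773 (32.7%) had less and 135 (5.72%) more coverage in CDK19KD than in CDK8KD (limma with the replicate block on log2 of bp + 1000, adjusted p under 0.05). Scaled by total covered length, the split was 224 less and 318 more, and the median log2 difference over all bins went from −0.14 to 0.03. A group mean lay under the 10 kb minimum in 31 bins, which passed it only through the other group, and the other 2330 held 766 of the bins with less and 129 of those with more. Without the replicate block none (0) passed, where 427 had less and 42 more at an unadjusted p under 0.05. With the block, the fit gave the spread of other bins 34.9 degrees of freedom, against 2 from a bin's own residuals. The small SEs and p-values of single bins therefore rest mostly on other bins. Without replicate 2 the counts were 321 and 64, without replicate 3 they were 329 and 59, and with only peaks of −log10 q of at least 5 none (0) passed, where 323 had less and 42 more at an unadjusted p under 0.05.

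All 5 bins with the largest deficit in CDK19KD relative to CDK8KD lay at a chromosome end. The bin that opens chromosome 17, chr17:1-1000000, had 144, 183 and 203 kb covered in CDK19KD and 274, 396 and 568 kb in CDK8KD. Its log2 difference was −1.17 (SE 0.09, adjusted p = 2.27e-12), and Control had 137, 163 and 301 kb. The bin chr16:90000001-91000000, which holds the last covered base of its chromosome, had 30.1, 33.9 and 35.9 kb in CDK19KD and 58.2, 72.2 and 125 kb in CDK8KD (log2 difference −1.25, SE 0.12, adjusted p = 5.29e-10). Both groups were apart in each of these bins, and Control replicates 1 and 2 lay near CDK19KD. By limma without the replicate block, the adjusted p was 0.0794 in either bin.

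The remaining 3 also hold the last covered base of their chromosome. At the end of chromosome 4, from 191000001, CDK19KD had 0.951, 0.475 and 5.24 kb covered and CDK8KD 22.9, 8.12 and 31.1 kb, while 2 Control libraries had no covered base (0 kb) there and Control replicate 1 had 4.96 kb. The bin from 141000001 on chromosome 9 had 7.03, 5.04 and 4.51 kb in CDK19KD, 15.9, 19.4 and 41.5 kb in CDK8KD and 6.43, 10.3 and 7.60 kb in Control. Both of these bins met the minimum only through CDK8KD, so their values are a description and no test is given. The bin from 48000001 on chromosome 21 had 13.4, 11.8 and 16.5 kb in CDK19KD and 33.8, 25.7 and 46.9 kb in CDK8KD. Its log2 difference was −1.26 (SE 0.15, adjusted p = 2.38e-08, and 0.0794 without the replicate block). Control had 15.4, 13.6 and 17.1 kb there. These 3 bins are short, with from 44.4 to 151 kb before the last covered base.

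The bins with the largest excess in CDK19KD over CDK8KD lay inside chromosomes and were thinly covered. The bin chr14:49000001-50000000 had between 14.5 and 19.2 kb in the CDK19KD libraries and 6.30, 5.93 and 9.33 kb in CDK8KD, with Control from 11.6 to 14.2 kb. In chr8:88000001-89000000 CDK19KD had 25.9, 7.07 and 8.84 kb and CDK8KD 17.4, 2.69 and 1.91 kb, and the groups overlap, as does Control with 21.1, 11.2 and 3.07 kb. Both of these bins met the minimum only through CDK19KD, so no test is given for them either. In chr4:33000001-34000000 CDK19KD had 62.5, 38.5 and 32.4 kb and CDK8KD 44.7, 19.1 and 10.2 kb (log2 difference 1.01, SE 0.15, adjusted p = 2.26e-06). There the groups overlap, the difference holds within each pair, and Control had 34.9, 41.8 and 12.9 kb. The bins chr1:72000001-73000000 (which holds region B) and chr9:106000001-107000000 had log2 differences of 0.97 (adjusted p = 4.44e-05) and 0.93 (adjusted p = 1.16e-05), without overlap between the groups. By limma without the replicate block, the adjusted p was 0.269, 0.150 and 0.105 in the bins of chromosomes 4, 1 and 9. Control had 17.6, 19.1 and 7.79 kb in the bin of chromosome 1 and up to 32.7 kb in that of chromosome 9, so its highest library lay above every CDK19KD library only in the latter.

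Position relative to the chromosome's end was then described for all bins, after the named bins had been seen and with no test. The end is the first or last base covered by any of the 6 lists, whichever is nearer. On some chromosomes, such as 14 and 21, the first covered base lies several Mb into the coordinates. Bins there also count as end bins. Of the 73 bins within 1 Mb of an end, 63 had less coverage in CDK19KD and 0 had more, with a median log2 difference of −0.48. Between 1 and 2 Mb 24 of 39 had less, and at 10 Mb or more 530 of 1945 (27.2%) had less and 128 had more, with a median of −0.12. With scaling, 40 of the 73 end bins still had less and 0 had more, while of those at 10 Mb or more 123 had less and 303 more. Among the 73 end bins, 2 met the 10 kb minimum only through CDK8KD. The other 71 held 61 with less and 0 with more, or 38 and 0 with scaling. The median covered length of end bins was 103 kb in CDK19KD, 150 kb in CDK8KD and 114 kb in Control. The base composition of these bins, and of the chromosomes described next, was not analysed here, and its part in their values was not tested.

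**Figure D4:**
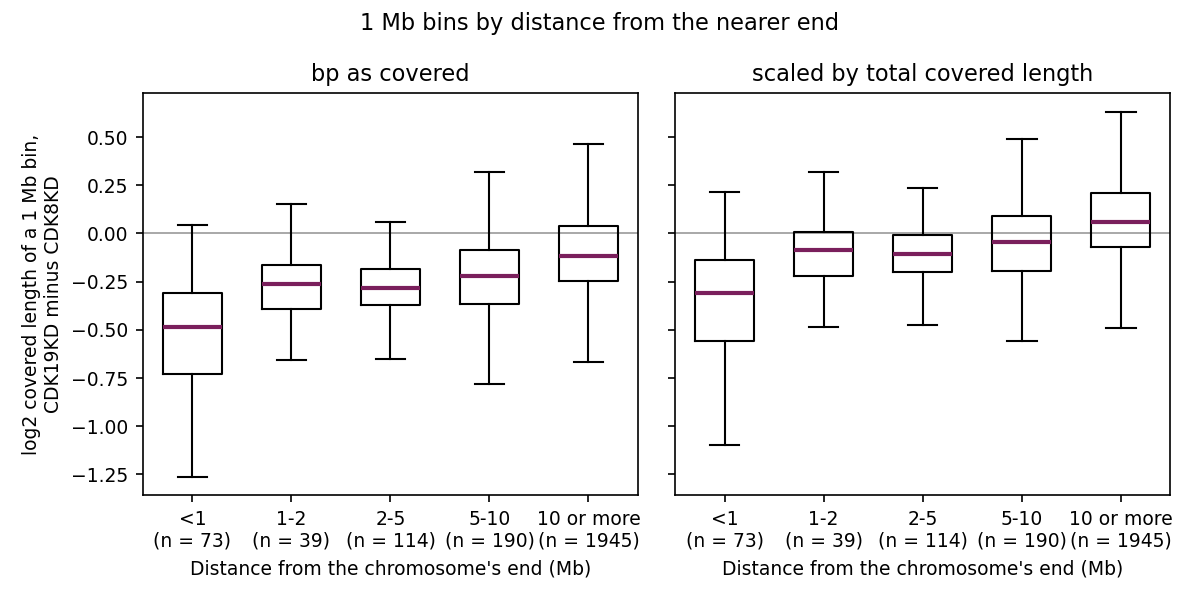
Log2 difference in covered length of 1 Mb bins (CDK19KD minus CDK8KD, vertical axis) by distance from the nearer end of the chromosome (Mb), as covered (left) and scaled by the total covered length of each library (right). Boxes span the quartiles, the line is the median and whiskers reach up to 1.5 times the box length, with bins beyond them not drawn. The box within 1 Mb lies below 0 in both panels, with medians of −0.48 and −0.31.

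Whole chromosomes differed little, and by different amounts. Over 23 chromosomes, the share of a library's covered length was higher in CDK19KD for 1 (4.35%) and lower for 3 (13.0%), by limma with the replicate block at an adjusted p under 0.05. Chromosome 4 held 5.47% ± 0.326 (SD, n = 3) of the covered length in CDK19KD and 4.95% ± 0.455 (SD, n = 3) in CDK8KD, a log2 difference of 0.15 (SE 0.032, adjusted p = 0.00778), with 0.08, 0.20 and 0.16 in the pairs. Chromosomes 16, 20 and 22 had log2 differences of −0.16 (adjusted p = 0.0177), −0.13 (adjusted p = 0.00778) and −0.18 (adjusted p = 0.0143).

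Chromosome 20 was the steadiest of these. It had 6.65, 6.87 and 7.03 Mb covered in CDK19KD and 7.75, 8.38 and 9.46 Mb in CDK8KD, its shares did not overlap between the groups, and 8.29% of its shared regions were called narrower, the highest share of any chromosome. On chromosomes 16 and 22 pair 2 stood apart, with −0.32 and −0.36 where the other pairs lay between −0.05 and −0.10. Chromosome 4 had the lowest share of narrower regions, 2.28%. Without the replicate block no chromosome (0) passed, where 1 had an unadjusted p under 0.05, and without replicate 3 only 1 passed.

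**Figure D5:**
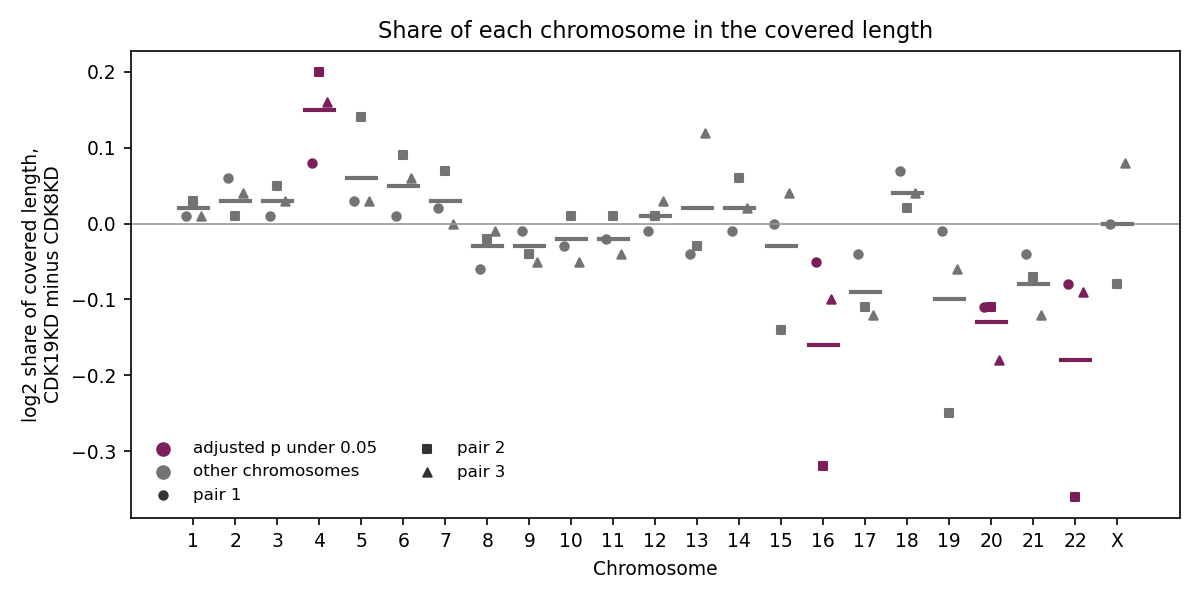
Log2 difference (CDK19KD minus CDK8KD) in the share of covered length on each chromosome, with a marker per pair and a line for the mean. Chromosome 4 lies above 0 and chromosomes 16, 20 and 22 below 0 in all 3 pairs, and these 4 passed the threshold.

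At the finest scale no single window passed. Among 75106 windows of 10 kb with a mean covered share of at least 5%, 0 (0%) had more and 0 (0%) less coverage in CDK19KD (limma with the replicate block, smallest adjusted p = 0.136). At an unadjusted p under 0.05 there were 3995 with more and 10942 with less (9601 and 8174 when scaled by total covered length), and without the block 76 and 226 passed. The windows of smallest p are named as loci that did not pass, and those at or near 0% in 1 group met the minimum only through the other. The window chr14:50080001-50090000, close to the bin of chromosome 14 described above, was covered over 100% in every CDK19KD library and over 74.2%, 74.0% and 72.9% in CDK8KD. The window chr2:72800001-72810000 had 63.0%, 54.5% and 66.3% in CDK19KD and no covered base (0%) in any CDK8KD library. In chr7:27810001-27820000 the shares were 53.7%, 66.4% and 51.8% against 0%, 14.5% and 0%. Control had 71.2%, 100% and 100% in the window of chromosome 14 and 4.07%, 1.13% and 0% in that of chromosome 2. In that of chromosome 7 it had 39.0%, 87.0% and 29.0%, so Control replicate 2 lay above every CDK19KD library.

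In the opposite direction, chr7:60001-70000, inside region J, was covered over 7.96%, 15.9% and 10.3% in CDK19KD and over 100% in every CDK8KD library. The window chr10:121450001-121460000 had 0%, 0% and 5.85% in CDK19KD and 56.0%, 58.8% and 64.0% in CDK8KD. Control had 22.9%, 9.22% and 53.8% in the window of chromosome 7 and 24.4%, 14.6% and 22.1% in that of chromosome 10. In chr20:61300001-61310000 all CDK8KD libraries were at 100% and CDK19KD at 46.9%, 42.5% and 48.0%, with Control between, from 71.1% to 78.2%. Each of these 6 windows separates the groups without overlap, which their choice by smallest p favours. The share of all windows that do so is not given here. All 6 had the same adjusted p of 0.136. Without the replicate block 5 of them had an adjusted p of 0.0284, and the window chr7:27810001-27820000 had 0.0507.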

How the data were processed

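The authors deposited 1 list of broad peaks per library. Peak names and layout are those of MACS2, the submitters' processing notes name MACS2 and deepTools and the build hg19, and settings, control library, aligner and depth are not given in the sources used here. By the column layout of MACS2 broad peaks, since the lists carry no header, each peak has a deposited fold enrichment (a linear ratio) and deposited −log10 p and −log10 q values, which belong to its own library. A deposited score, 10 times the −log10 q without decimals, was not used. Since lists hold no counts, no count model was used and no counting interval was computed.

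Analysis was limited to the 22 autosomes and chromosome X. Covered length was computed in windows of 10 kb, bins of 1 Mb, chromosomes and merged regions, and tested with limma 3.58.1 (R 4.3.3; lmFit and eBayes, with a trend except for chromosomes) on the 6 libraries, adjusted by Benjamini-Hochberg over all features of a scale. With the block 2 residual degrees of freedom remain, so tests lean on the spread of other features. Single values had exact sign-flip permutation tests over 3 pairs (8 arrangements). The replicate number was the block because the comparison pairs by it. After group means were removed, same-numbered libraries correlated at 0.548, 0.213 and 0.432 over windows, each above 0.1, and no other pair of a CDK19KD and a CDK8KD library was above −0.0295. Removing group means forces the other pairs to be negative on average once same-numbered pairs are positive. This contrast is therefore partly arithmetic. The code was tested on simulated data.

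Named loci are the 5 shared regions (one sign in all pairs, at least 2 kb) and 5 bins with the largest called difference in each direction and, as no window passed, the 3 windows of smallest p in each direction. The comparison and its lists were chosen with earlier results of these data known. Gene starts and gene lists had been planned and were not analysed here, because the annotation at hand is of another build. Sequences of the loci were not used here for the same reason, and the 3 Input samples were not analysed here.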

Additional observations from a re-analysis of the deposited data

How the results depend on the processing

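Covered length, length in peaks of at least 10 kb and median width kept their sign (CDK19KD below CDK8KD) under every alternative run, with log2 ratios from −0.25 to −0.14, −0.60 to −0.46 and −0.21 to −0.03. Unpaired, they had exact permutation p-values of 0.1, 0.1 and 0.7, where 0.1 is the smallest possible. Without the replicate block, windows with more and less CDK19KD coverage rose to 76 and 226, while shared regions fell to 14 broader and 132 narrower, and bins and chromosomes to 0. Scaling by total covered length gave 380 broader and 603 narrower shared regions, and 318 bins with more and 224 with less. Peaks with a −log10 q of at least 5 gave 0 broader and 0 narrower regions, 0 bins and 0 chromosomes, where 2426 regions, 365 bins and 3 chromosomes had an unadjusted p under 0.05. The 20000 strongest peaks gave 0 broader and 17 narrower regions, 46 bins with more and 561 with less, and 0 chromosomes (8 at an unadjusted p under 0.05). Leaving out each replicate number (both its libraries, since the block uses whole pairs) gave 0 to 226 broader and 0 to 1065 narrower regions, 59 to 115 bins with more and 321 to 774 with less, and 1 to 6 chromosomes. No named locus changed sign in the runs that gave it a value. Regions A to J had no value with peaks of −log10 q of at least 5. Nor did they have one with the 20000 strongest peaks. Only some of the named bins and windows had values in these runs. For the other loci, these runs cannot show whether the sign holds. With scaling the median went from −0.14 to 0.03 over bins and from −0.15 to 0.03 over shared regions. The cause of these changes was not tested. Alternatives for gene starts were not run. Depth is unknown, so what it limits cannot be given.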

Other observations

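Runs of neighbouring called bins are listed here after their values were seen, and with no test. Of 415 runs of called bins with less coverage, 169 joined 2 or more bins, and of 117 with more coverage 16 did, where 32.7% and 5.72% of all bins were called in these directions. The longest, chr17:69000001-82000000, joined 13 bins and had 2219.6, 2323 and 2748 kb covered in CDK19KD replicates 1, 2 and 3, against 2713, 3215 and 3865 kb in CDK8KD. Runs of 10 and 9 bins lay at chr16:81000001-91000000 and chr22:36000001-45000000. Control covered 2248, 2251 and 3138 kb of the run on chromosome 17, so Control replicate 3 lay among the CDK8KD values and the other 2 beside the lowest CDK19KD value. The longest runs with more CDK19KD coverage joined 3 bins each, at chr4:175000001-178000000 and chr7:82000001-85000000.

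Bins were also ordered by their coverage in Control, which the test did not use. In the quintile of bins with the least Control coverage, 78 of 472 had less and 55 had more CDK19KD coverage. In the quintile with the most, 219 of 473 had less and 3 had more. Scaled by total covered length, the counts were 26 less and 72 more in the first of these quintiles and 56 less and 46 more in the last. Within this last quintile, 18 of the 21 bins within 2 Mb of a chromosome end had less CDK19KD coverage, and 162 of the 397 at 10 Mb or more did, at a median Control coverage of 252 and 249 kb. With scaling 7 of the 21 had less and 0 more, and of the 397 there were 39 with less and 44 with more.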
